A study of Rattus norvegicus with 13 samples.

Results

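Hepatic expression of 9 enzymes of amino acid breakdown was described across 4 diet groups of pregnant rats. The enzymes were Sds, Gpt, Tat, Hpd, Tdo2, Haao, Hal, Oat and Dao. Members were all probe sets, other than control probe sets, whose annotation named exactly 1 of these genes. They numbered 17 of 8740 probe sets and 9 of 4736 genes on the array. The animals were female Sprague Dawley rats mated at a known time, and each of 13 hepatic RNA samples was hybridised to 1 one-colour Affymetrix rat array. EtOH-160 rats (n = 4) were undernourished and received ethanol at 12 g per kg per day in a diet of 160 kcal per kg of metabolic body weight per day. EtOH-220 rats (n = 3) received the same ethanol dose in 220 kcal. TEN-160 rats (n = 3) were undernourished at 160 kcal without ethanol, and TEN-220 rats (n = 3) were the controls at 220 kcal without ethanol. No non-pregnant rats were analysed here. Whether the RNA on an array came from 1 animal or a pool is not stated in the labels, nor is the gestational age at sampling. Each p-value measures only the spread between these samples, which may be technical.

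The liver breaks amino acids down by removing their nitrogen and passing the carbon skeletons to glucose or energy production. Sds and Gpt turn serine and alanine into pyruvate, a substrate of gluconeogenesis. Tat and Hpd act in tyrosine breakdown, Tdo2 and Haao in the kynurenine pathway of tryptophan, Hal in histidine breakdown and Oat in ornithine metabolism. Dao oxidises D-amino acids in peroxisomes. In the liver lobule Sds and Hal are known as enzymes of the periportal zone, which receives the incoming portal blood, and Oat as an enzyme of the pericentral zone. In rat liver Sds and Tat are textbook targets of glucagon and glucocorticoids, and Sds rises with fasting and with a diet rich in protein.

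RefSeq promoter sequences (build GRCr8, 250 bases before the gene start and 50 after it) matched 6 of the 9 genes, namely Tat, Hpd, Tdo2, Haao, Oat and Dao. The promoters of Hpd, Haao and Dao are printed because these were the matched genes with a probe set that was higher in EtOH-160 than in TEN-160 arrays. They lie at chr12:39041996-39042295 on the plus strand for Hpd, chr6:16598075-16598374 on the plus strand for Haao and chr12:48273251-48273550 on the minus strand for Dao. Each is written 5′ to 3′, with any match to a searched motif in capitals.
Hpd: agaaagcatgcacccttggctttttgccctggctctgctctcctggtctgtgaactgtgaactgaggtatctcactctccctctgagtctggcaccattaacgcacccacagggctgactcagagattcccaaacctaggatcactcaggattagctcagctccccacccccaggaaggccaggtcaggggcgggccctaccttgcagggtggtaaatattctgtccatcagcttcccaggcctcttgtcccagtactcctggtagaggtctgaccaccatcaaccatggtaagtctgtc
Haao: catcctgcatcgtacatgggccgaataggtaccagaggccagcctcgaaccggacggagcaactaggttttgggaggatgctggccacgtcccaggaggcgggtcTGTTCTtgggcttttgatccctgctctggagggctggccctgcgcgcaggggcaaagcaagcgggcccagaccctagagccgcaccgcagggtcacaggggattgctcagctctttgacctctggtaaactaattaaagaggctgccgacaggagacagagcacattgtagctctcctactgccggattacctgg
Dao: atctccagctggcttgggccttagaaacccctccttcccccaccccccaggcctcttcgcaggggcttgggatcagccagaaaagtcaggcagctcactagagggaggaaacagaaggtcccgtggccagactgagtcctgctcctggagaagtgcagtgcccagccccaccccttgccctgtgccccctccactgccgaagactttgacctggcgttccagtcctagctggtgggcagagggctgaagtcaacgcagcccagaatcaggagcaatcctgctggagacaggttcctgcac
Letters searched on both strands were TGTTCT, the core of the glucocorticoid receptor element, TGACG, the core of the CREB element, TTGCNNAA, bound by C/EBP factors, and TATAAA, the TATA box. TGTTCT occurred in 20.7% of 33469 RefSeq promoters of this length, TGACG in 21.2%, TTGCNNAA in 10.6% and TATAAA in 14.2%. The Haao promoter held 1 TGTTCT, 145 to 140 bases before the start. Tdo2 held TATAAA, 228 to 223 bases before the start, and Oat held TGACG across the start. No match overlapped another, and the promoters of Hpd, Dao and Tat held none of these letters in this window. A match is a description of the sequence and not a bound site.

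The signal on every array was put on 1 scale by quantile normalization, because TEN-220 replicate 1 had been deposited at a trimmed mean of 133 where the other 12 arrays stood at about 501. Signals are linear and changes are differences of mean log2 signal from limma, with a Benjamini-Hochberg adjusted p under 0.05 taken as a call. A signal of 43.9 served as background. It is the 95th percentile over 19 controls whose sequences rat RNA lacks. Levels of different probe sets are not comparable with each other. In the array maker's naming, the endings _s_at and _f_at mark probe sets that can also detect related transcripts. The 3 TEN-160 arrays differed from the other 10. They lay at 31.0 to 43.1 on the first principal component, against -13.6 to -2.98 on the other arrays, and this component held 31.1% of the variance. The signal ratio of the 5′ to the 3′ probe set of a BioDn spike control was 0.422 to 0.497 on TEN-160 arrays, against 0.132 to 0.210 on the others. The ratio of 3′ to 5′ Gapdh signal, which rises with RNA breakdown or incomplete copying, was 1.5 to 1.73 in EtOH-160, 1.04 to 1.47 in EtOH-220, 1.03 to 1.24 in TEN-160 and 1.52 to 2.32 in TEN-220. Its ranges overlapped between EtOH-160 and TEN-220 and between EtOH-220 and TEN-160 only. The same ratio for beta-actin was 1.77 to 2.31 in EtOH-160, 1.93 to 2.18 in EtOH-220, 1.91 to 2.96 in TEN-160 and 1.97 to 3.00 in TEN-220. The beta-actin ranges overlapped between all groups. The part of any of these ratios in the results was not tested, and every comparison with TEN-160 rests on the 3 TEN-160 arrays. The other comparisons were refitted without them.

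Markers of hepatocytes were bright on every array: all 5 measured of 6 listed were above background throughout, with albumin at 33600 to 38733. Their sum was 120713 to 128860 in EtOH-160, against 129895 to 133486 in EtOH-220. Erythroid markers (3 measured, all above background on every array) summed to 8198 to 14865 in EtOH-160, against 15691 to 24098 in EtOH-220, 12765 to 24520 in TEN-160 and 13566 to 18194 in TEN-220. Cholangiocyte markers summed to 187 to 259 in EtOH-160, against 131 to 185 in EtOH-220, 140 to 185 in TEN-160 and 135 to 175 in TEN-220, and none of the 3 was above background on all arrays. The sums of all 3 lists did not overlap between EtOH-160 and EtOH-220. Their part in the results below was not tested. In bulk RNA of this kind, fewer cells of a type and less RNA per cell cannot be told apart.

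The rats that were both undernourished and given ethanol had the highest mean signal for 6 of the 9 enzymes by the brightest probe set of each, and for 11 of the 17 probe sets. Among the 6, the EtOH-160 arrays of Tat, Hpd and Haao overlapped the next group, with log2 differences of 0.33, 0.20 and 0.04. The 11 include several probe sets each of Sds, Hpd and Haao. The share of all probe sets highest in EtOH-160 is not given here, so both counts are descriptions only. Of the 17 probe sets, 16 passed the filter on low mean signal, and the Sds probe set X13119cds_s_at did not. EtOH-160 minus TEN-160 asks what ethanol did in undernourished rats. There 9 members rose and 2 fell, where 11.9% of all 5244 tested probe sets were higher and 10.4% lower (22.3% in all). The 9 were probe sets of 5 genes, Sds, Gpt, Hpd, Haao and Dao, and the 2 were of Hal and Oat. In EtOH-160 minus EtOH-220, which asks what undernutrition did in ethanol-fed rats, 2 rose and 0 fell, against 0.21% higher and 0.0763% lower over all probe sets, and both were Sds. In EtOH-160 minus TEN-220, the combined treatment against the full-fed control, 3 rose and 0 fell, against 1.33% higher and 0.896% lower over all. The 3 were probe sets of Sds and Dao. These 3 comparisons share the EtOH-160 arrays. Without the TEN-160 arrays in the fit, EtOH-160 minus EtOH-220 had 1 call and EtOH-160 minus TEN-220 still had 3. The EtOH-160 minus EtOH-220 comparison had 0 calls without any one of EtOH-220 replicate 1 or 3 or EtOH-160 replicate 3 or 4.

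In TEN-160 minus TEN-220, which asks what undernutrition did without ethanol, 1 member rose and 4 fell, against 7.84% higher and 9.94% lower over all. The 1 was of Oat, and the 4 were probe sets of Gpt, Hpd and Haao. In EtOH-220 minus TEN-220, which asks what ethanol did at full energy supply, limma called 0 members, with 0.0191% of all probe sets called, and 3 members had an unadjusted p under 0.05 where 9.99% of all probe sets did. The interaction, the ethanol difference at 160 kcal minus that at 220 kcal, was called positive for 4 members and negative for 1, against 4.04% and 3.09% of all. Here the 4 were probe sets of Gpt, Hpd and Haao, and the 1 was of Oat. The 5 calls of TEN-160 minus TEN-220 became 3 without TEN-220 replicate 1 or TEN-160 replicate 3, and the 5 calls of the interaction became 2 without TEN-220 replicate 1. The median log2 change of the 16 members was 0.61 in EtOH-160 minus TEN-160, where that of all tested probe sets was 0.02, and 0.23 in EtOH-160 minus EtOH-220, where that of all was 0.00. It was 0.14 in EtOH-220 minus TEN-220, against -0.04 over all probe sets. It was -0.11 in TEN-160 minus TEN-220, against -0.03 over all.

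**Figure D1:**
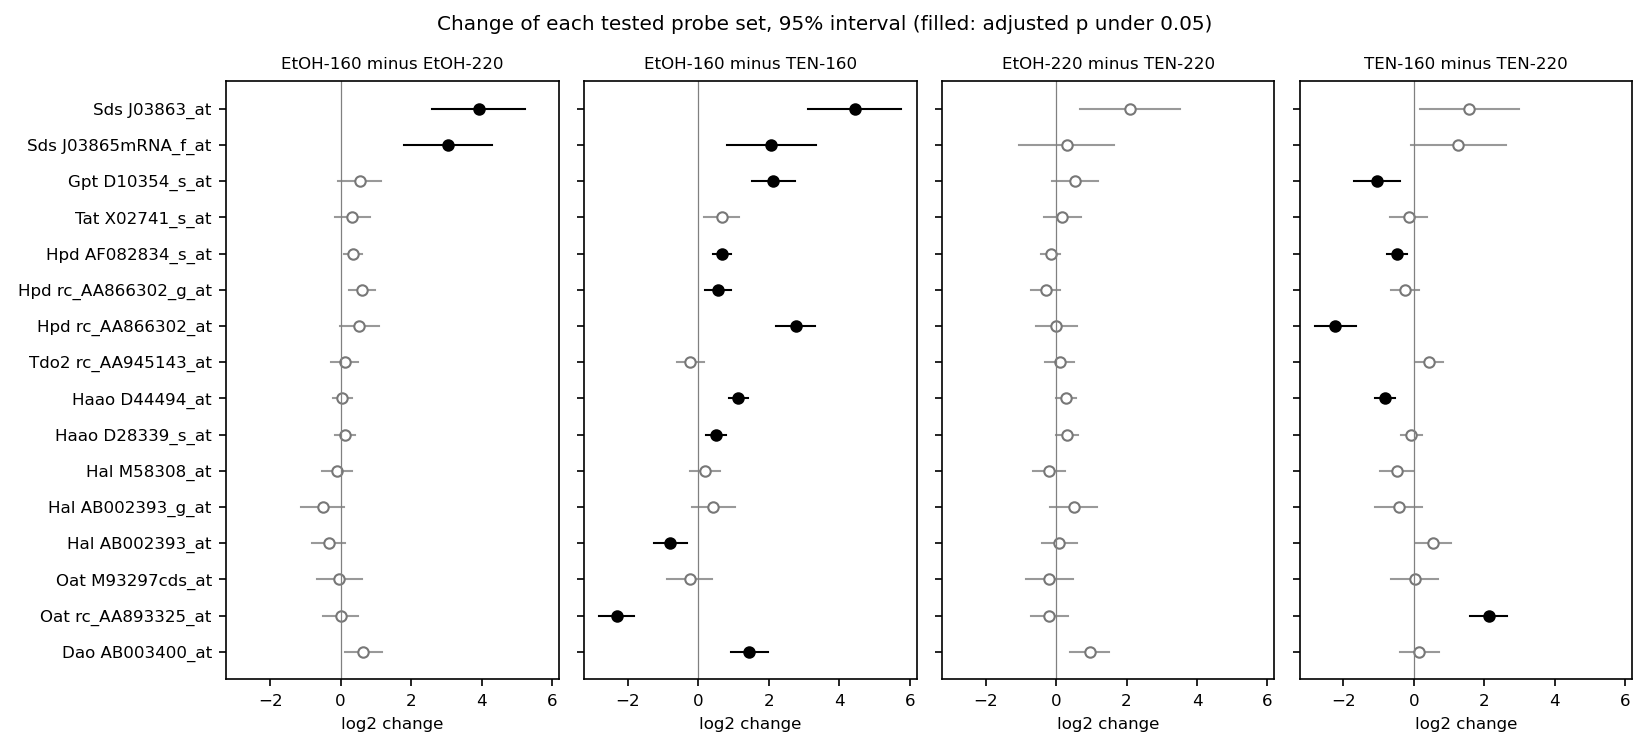
Log2 change (points) with its 95% interval (bars) of the 16 tested probe sets in 4 comparisons, 1 to a panel, with filled points for an adjusted p under 0.05. Sds J03863_at lies farthest right in both panels with EtOH-160, at 3.92 and 4.44, and Oat rc_AA893325_at lies at -2.32 in EtOH-160 minus TEN-160.

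Sds, serine dehydratase, had the largest change among the members. Its brighter probe set, J03863_at, had signals of 738.8, 4686.3, 6023.0 and 4394.0 on the EtOH-160 arrays. The EtOH-220 arrays had 185.7, 326.7 and 140.1, the TEN-160 arrays 152.2, 133.3 and 141.9, and the TEN-220 arrays 40.3, 26.4 and 101.4. All 4 EtOH-160 arrays lay above all 9 others, although replicate 1 was far below the other 3, and 2 of the 3 TEN-220 arrays were at or below background. Mean log2 signal was 11.60 ± 1.39 (SD, n = 4) in EtOH-160, 7.67 ± 0.62 in EtOH-220, 7.15 ± 0.10 in TEN-160 and 5.57 ± 0.99 in TEN-220 (n = 3 each). In this order EtOH-220 and TEN-160 overlapped, and the other neighbours did not.

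**Figure D2:**
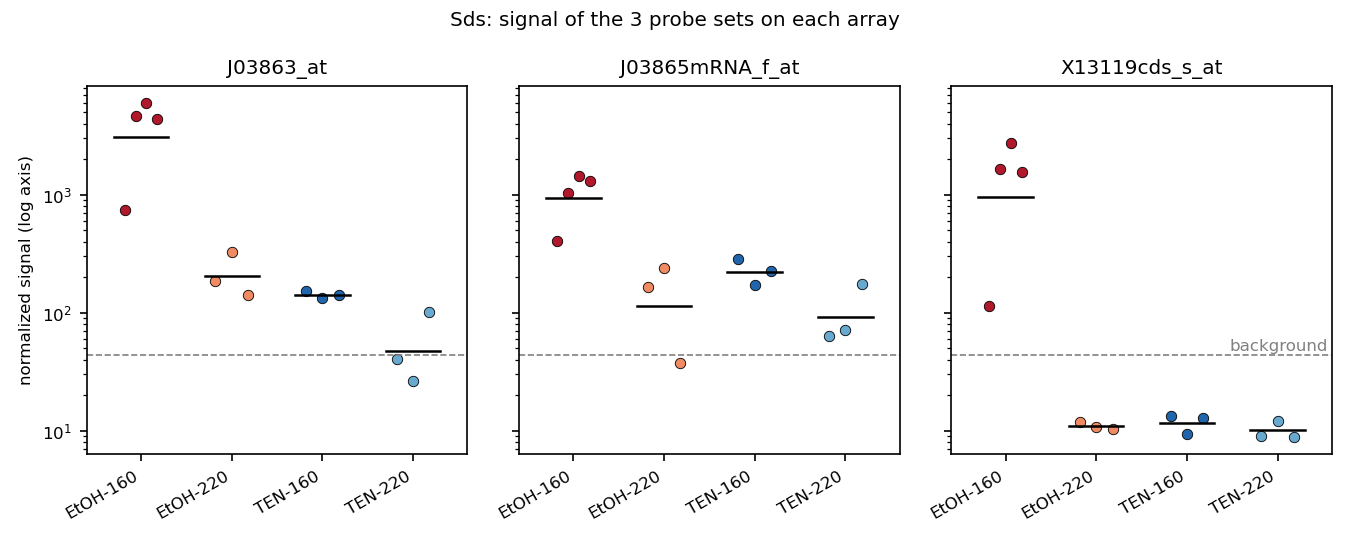
Normalized signal on a log axis of the 3 Sds probe sets on each array (points), by group, with the group geometric mean (lines) and the background signal of 43.9 (dashed). The 4 EtOH-160 arrays are highest for each probe set, and EtOH-160 replicate 1 is the lowest of the 4.

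The change of J03863_at was 3.92 on the log2 scale (SE 0.615, adjusted p = 0.0159) in EtOH-160 minus EtOH-220. It was 4.44 (SE 0.615, adjusted p = 0.000405) in EtOH-160 minus TEN-160 and 6.02 (SE 0.615, adjusted p = 0.000248) in EtOH-160 minus TEN-220. Changes that did not pass the test were 2.10 in EtOH-220 minus TEN-220 (adjusted p = 0.327), 1.58 in TEN-160 minus TEN-220 (adjusted p = 0.117) and 2.34 in the interaction (adjusted p = 0.125). Without EtOH-160 replicate 1 the 3 called changes were 4.61, 5.13 and 6.71, and both the change in TEN-160 minus TEN-220 (1.58, adjusted p = 0.0214) and the interaction (3.03, adjusted p = 0.0133) passed. The call against EtOH-220 ended without any one of EtOH-220 replicate 1 or 3 or EtOH-160 replicate 3 or 4, with adjusted p from 0.0583 to 0.0848. That call also ended in a fit without the filter on low signal (0.0861) and in a fit of those groups alone (0.0671). The calls against TEN-160 and TEN-220 held without any single array and without the filter.

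The other Sds probe sets were also highest in EtOH-160. J03865mRNA_f_at read 403.5, 1033.8, 1432.1 and 1311.7 in EtOH-160, 165.4, 241.0 and 37.4 in EtOH-220, 287.6, 173.0 and 223.7 in TEN-160, and 64.0, 71.5 and 174.7 in TEN-220. All EtOH-160 arrays were above all others, and the other 3 groups overlapped. Its log2 change was 3.04 (SE 0.585, adjusted p = 0.0497) against EtOH-220, 2.08 (adjusted p = 0.0224) against TEN-160 and 3.34 (adjusted p = 0.00885) against TEN-220. The call against EtOH-220 ended in 10 of the 13 refits that left out 1 array, with adjusted p of 0.0573 to 0.145, and the change was 2.24 without EtOH-220 replicate 3. The call against TEN-160 ended without TEN-160 replicate 2 or 3 or EtOH-160 replicate 3 or 4 (adjusted p 0.0563 to 0.0681), and that against TEN-220 without TEN-220 replicate 1 or 2 (0.0519 to 0.0544). Without the filter on low signal all 3 calls ended, with adjusted p of 0.158 against EtOH-220, 0.0674 against TEN-160 and 0.0589 against TEN-220.

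X13119cds_s_at, the Sds probe set with low mean signal, read 113.5, 1667.2, 2746.1 and 1573.7 in EtOH-160. On the other 9 arrays it read 8.8 to 13.3, below background on every one. With those groups set at the background, EtOH-160 was at least 21.6-fold higher than each of them. In a fit without the filter on low signal its change passed against TEN-160 (adjusted p = 0.00208) and TEN-220 (0.012) and not against EtOH-220 (0.0648).

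Gpt, alanine aminotransferase, was lowest in undernourished rats without ethanol. Its probe set read 1218.7, 1434.1, 1704.5 and 1144.0 in EtOH-160, 749.0, 977.3 and 1111.0 in EtOH-220, 357.6, 375.3 and 223.8 in TEN-160, and 928.2, 743.1 and 380.1 in TEN-220. EtOH-160 lay above and TEN-160 below all other arrays, while EtOH-220 and TEN-220 overlapped. The change was 2.13 (SE 0.286, adjusted p = 0.000371) in EtOH-160 minus TEN-160 and -1.04 (SE 0.306, adjusted p = 0.0315) in TEN-160 minus TEN-220. It was 0.54 in EtOH-160 minus EtOH-220 (adjusted p = 0.521) and 1.09 in EtOH-160 minus TEN-220 (0.0717), neither called. The interaction was 1.58 (adjusted p = 0.0373), a call that ended in 9 of 13 refits without 1 array (adjusted p 0.0504 to 0.0982). The TEN-160 minus TEN-220 call ended when TEN-160 replicate 3, TEN-220 replicate 1 or TEN-220 replicate 2 was left out (adjusted p 0.107 to 0.141). Without the filter on low signal neither that call (0.0739) nor the interaction (0.0826) passed.

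Tat, the aminotransferase that opens tyrosine breakdown, did not pass in any comparison. It read 8306.4, 5666.9, 5130.8 and 8040.2 in EtOH-160, 5705.1, 7169.7 and 3581.6 in EtOH-220, 4743.4, 4235.7 and 3705.3 in TEN-160, and 4110.3, 4730.8 and 5216.3 in TEN-220. The EtOH-160 arrays lay above the TEN-160 arrays and overlapped the other groups. In EtOH-160 minus TEN-160 the change was 0.66 (SE 0.228, adjusted p = 0.0531). It passed without EtOH-220 replicate 2 or 3 or EtOH-160 replicate 3 (adjusted p 0.0252 to 0.0383), under median centring (0.0317) and in a fit of those groups alone (0.0446).

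Hpd, the dioxygenase that follows Tat in the pathway, was higher in EtOH-160 than in TEN-160 arrays on all 3 probe sets. AF082834_s_at read 15437.2, 17186.5, 18822.7 and 16282.0 in EtOH-160, 11953.7, 14950.9 and 13139.1 in EtOH-220, 11219.0, 11219.0 and 9407.2 in TEN-160, and 16378.4, 14214.4 and 13782.6 in TEN-220. The TEN-160 arrays were below all others. The change was 0.67 (SE 0.119, adjusted p = 0.0017) in EtOH-160 minus TEN-160, -0.48 (SE 0.127, adjusted p = 0.0194) in TEN-160 minus TEN-220 and 0.82 (adjusted p = 0.0151) in the interaction. The TEN-160 minus TEN-220 call ended without TEN-220 replicate 1 or TEN-160 replicate 3 (adjusted p 0.0709 to 0.0926), and the interaction call without TEN-220 replicate 1 (0.0528). Under trimmed-mean scaling neither passed, with adjusted p of 0.149 and 0.0549.

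The dim Hpd probe set rc_AA866302_at read 170.2, 252.2, 277.3 and 224.0 in EtOH-160, 115.2, 181.6 and 185.8 in EtOH-220, 37.3, 29.2 and 34.5 in TEN-160, and 204.0, 154.7 and 122.6 in TEN-220. The TEN-160 arrays were all below background. With TEN-160 at the background, EtOH-160 was at least 5.17-fold higher, and TEN-160 was at least 3.57-fold lower than TEN-220. These bounds were not tested. The limma fit used the TEN-160 signals below background as they were. It gave 2.76 (adjusted p = 2.98e-05) in EtOH-160 minus TEN-160 and -2.23 (adjusted p = 0.000271) in TEN-160 minus TEN-220. The fitted interaction of this probe set, 2.76, is not a bound either and had an adjusted p of 0.00206. The bright probe set rc_AA866302_g_at ranged from 12653.3 to 17554.5 in EtOH-160 and from 9783.6 to 10022.1 in TEN-160. Its change of 0.56 (adjusted p = 0.0344) was not called in 6 of 13 refits without 1 array (adjusted p 0.0587 to 0.0896). Nor was it called without the filter (0.0751) or under trimmed-mean scaling (0.0659). The lowest geometric mean of rc_AA866302_g_at was that of EtOH-220 (9608.9), below TEN-160 (9926.1). Its TEN-160 arrays lay below the TEN-220 arrays, but that change was not called (-0.25, adjusted p = 0.38). Its interaction of 0.85 (adjusted p = 0.0586) passed only under median centring (0.0241) or without EtOH-220 replicate 3 (0.0445).

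Tdo2, tryptophan dioxygenase, read 9315.3, 5262.0, 7786.9 and 8913.2 in EtOH-160, 6023.0, 7786.9 and 7551.7 in EtOH-220, 9407.2, 8913.2 and 8525.0 in TEN-160, and 7048.9, 5914.9 and 6919.8 in TEN-220. TEN-160 had the highest mean and lay apart from EtOH-220 and TEN-220. No comparison passed. The change in EtOH-160 minus TEN-160 was -0.23 (adjusted p = 0.388), and that in TEN-160 minus TEN-220 passed without EtOH-160 replicate 2 only (adjusted p = 0.0431).

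Haao, hydroxyanthranilate dioxygenase, had its lowest mean in TEN-160 on both probe sets. Only D44494_at was called lower there than in TEN-220. D44494_at read 4130.7, 5143.1, 4800.4 and 4986.0 in EtOH-160, 4121.0, 5092.6 and 4663.0 in EtOH-220, 1987.5, 2211.3 and 2297.4 in TEN-160, and 3970.5, 3509.7 and 3893.3 in TEN-220. Both ethanol groups lay above both groups without ethanol, and TEN-160 lay below all others. The change was 1.14 (SE 0.126, adjusted p = 0.000125) in EtOH-160 minus TEN-160, -0.81 (SE 0.135, adjusted p = 0.0014) in TEN-160 minus TEN-220 and 0.85 (adjusted p = 0.0171) in the interaction, which was not called without TEN-220 replicate 1 (adjusted p = 0.0536). D28339_s_at ranged from 1167.0 to 1286.9 in EtOH-160, from 1062.5 to 1211.0 in EtOH-220, from 782.5 to 948.8 in TEN-160 and from 854.7 to 1011.5 in TEN-220. Its ethanol groups too lay above the groups without ethanol. The change was 0.50 (adjusted p = 0.0162) in EtOH-160 minus TEN-160, a call that ended without TEN-160 replicate 2 (adjusted p = 0.0568), and an uncalled 0.31 in EtOH-220 minus TEN-220. For D28339_s_at the change of -0.07 in TEN-160 minus TEN-220 (adjusted p = 0.781) and the interaction of 0.19 (0.584) were not called.

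**Figure D3:**
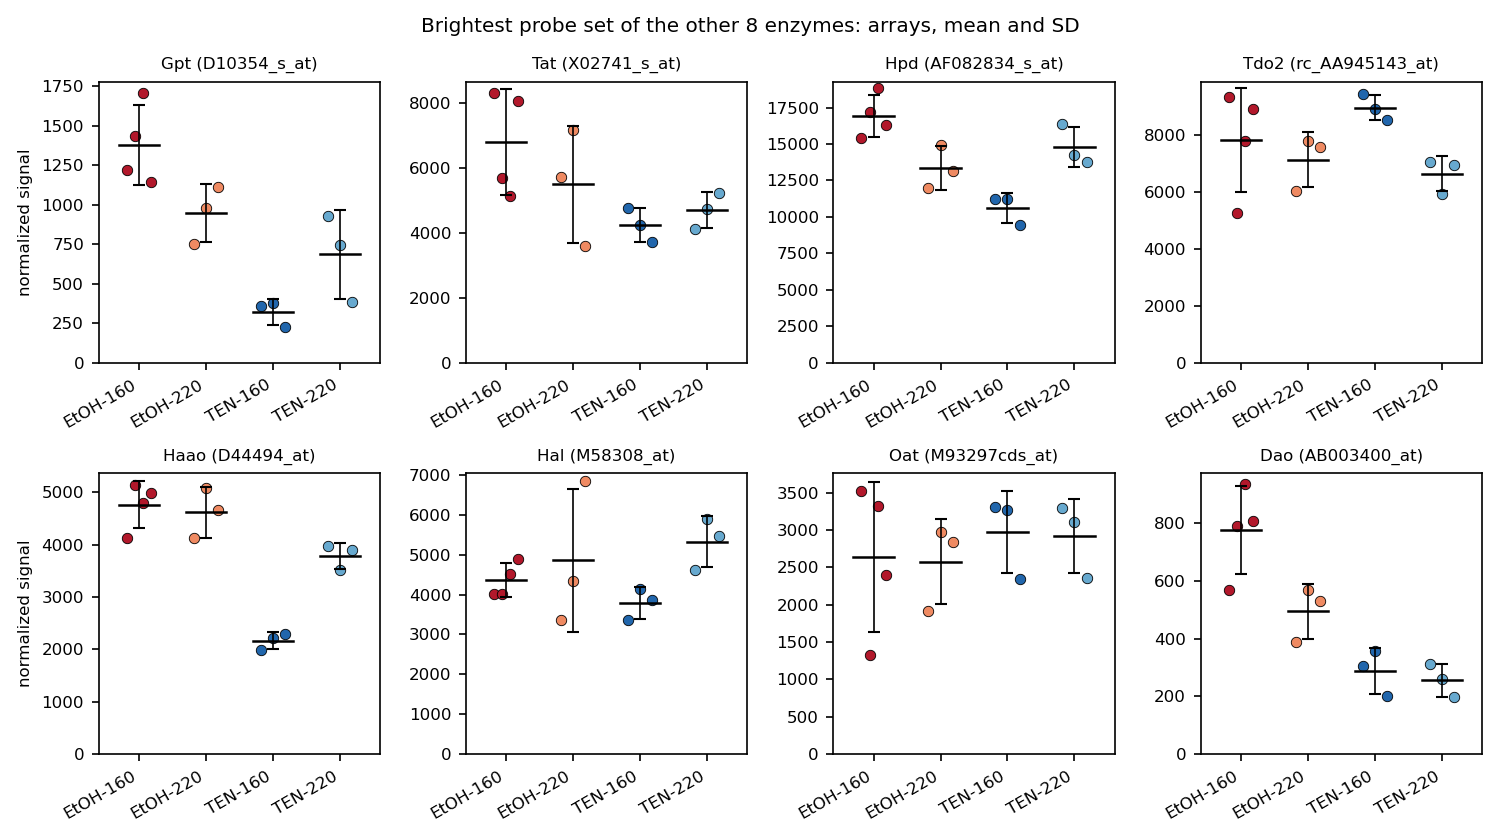
Mean normalized signal (lines) with SD (bars) and single arrays (points) of the brightest probe set of the 8 enzymes other than Sds in the 4 groups, on linear axes that start at 0. Gpt and Dao are highest on the EtOH-160 arrays, and Gpt, Hpd and Haao are lowest on the TEN-160 arrays.

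Hal, histidine ammonia-lyase, was called on the dimmest of its 3 probe sets only. M58308_at read 4018.8, 4018.8, 4510.6 and 4891.3 in EtOH-160, 3369.1, 4338.3 and 6859.0 in EtOH-220, 3362.8, 4138.7 and 3866.2 in TEN-160, and 4626.5, 5893.3 and 5463.4 in TEN-220. No comparison of it passed, and that of TEN-160 minus TEN-220, whose arrays did not overlap, passed without EtOH-220 replicate 3 (adjusted p = 0.0456) and under median centring (0.0337). AB002393_g_at ranged from 548.6 to 1083.1 in EtOH-160, 982.5 to 1899.0 in EtOH-220, 483.2 to 775.8 in TEN-160 and 789.3 to 1114.6 in TEN-220, and was not called either. The dim AB002393_at ranged from 115.9 to 179.7 in EtOH-160 and from 232.8 to 330.5 in TEN-160, a change of -0.80 (SE 0.217, adjusted p = 0.0185). That call ended without TEN-160 replicate 3 (-0.65, adjusted p = 0.0807).

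Oat, ornithine aminotransferase, was called on the dimmer of its 2 probe sets only. M93297cds_at read 3523.0, 1327.5, 3324.9 and 2396.9 in EtOH-160, 1920.2, 2979.2 and 2835.8 in EtOH-220, 3304.9, 3275.0 and 2337.9 in TEN-160, and 3299.9, 3101.3 and 2354.0 in TEN-220. These ranges all overlapped, and the change in EtOH-160 minus TEN-160 was -0.25 (adjusted p = 0.589). The probe set rc_AA893325_at read 819.3, 489.5, 905.5 and 578.3 in EtOH-160, 755.1, 648.8 and 631.8 in EtOH-220, 4613.4, 3123.5 and 2657.4 in TEN-160, and 840.8, 807.1 and 676.1 in TEN-220. TEN-160 was above all others by a wide margin. The change was -2.32 (SE 0.231, adjusted p = 6.04e-05) in EtOH-160 minus TEN-160, 2.13 (SE 0.247, adjusted p = 0.000197) in TEN-160 minus TEN-220 and -2.13 (adjusted p = 0.00361) in the interaction.

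Dao, D-amino acid oxidase, was highest in the rats that had both treatments. It read 569.8, 790.2, 936.7 and 807.9 in EtOH-160, 386.5, 567.3 and 530.4 in EtOH-220, 304.4, 357.9 and 201.7 in TEN-160, and 310.8, 260.2 and 197.2 in TEN-220. EtOH-160 lay above all others, EtOH-220 lay above both groups without ethanol, and these overlapped. The change was 1.45 (SE 0.242, adjusted p = 0.00125) in EtOH-160 minus TEN-160 and 1.60 (SE 0.242, adjusted p = 0.0039) in EtOH-160 minus TEN-220, and both calls held without any single array. The changes of 0.65 in EtOH-160 minus EtOH-220 (adjusted p = 0.331) and 0.96 in EtOH-220 minus TEN-220 (0.259) did not pass.

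By the ranges alone, the groups did not overlap for 12 of the 16 tested member probe sets in EtOH-160 minus TEN-160, against 31.1% of all tested probe sets, and for 6 in EtOH-160 minus EtOH-220, against 10.2%. They did not overlap for 6 in EtOH-160 minus TEN-220, against 16.8%, for 4 in EtOH-220 minus TEN-220, against 17.8%, and for 11 in TEN-160 minus TEN-220, against 36.5%. The 4 of EtOH-220 minus TEN-220 were Sds J03863_at, both of Haao and that of Dao, and all were higher in EtOH-220. Across all groups, EtOH-160 lay wholly above the 9 other arrays on 4 of the 16 tested member probe sets, 2 of Sds and those of Gpt and Dao, against 1.22% of all tested probe sets. TEN-160 lay wholly apart from all other groups on 5, against 15% of all. It was above for the Oat probe set rc_AA893325_at, where 7.72% of all probe sets were above, and below for those of Gpt, Hpd (AF082834_s_at and rc_AA866302_at) and Haao (D44494_at), where 7.28% of all probe sets were below.

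Where a gene had several tested probe sets, their pairs had the same sign of change in 7 of 9 pairs in EtOH-160 minus TEN-160, 8 of 9 in EtOH-160 minus EtOH-220 and 9 of 9 in EtOH-160 minus TEN-220. They did in 7 of 9 in TEN-160 minus TEN-220 and in the interaction, and in 5 of 9 in EtOH-220 minus TEN-220. The largest gap between tested probe sets of a gene was that of Sds in EtOH-160 minus TEN-220, where J03865mRNA_f_at changed by 3.34 and J03863_at by 6.02. Their median signal ratio, J03865mRNA_f_at over J03863_at, was 0.268 in EtOH-160, 0.738 in EtOH-220, 1.58 in TEN-160 and 1.72 in TEN-220, so that the groups with ethanol lay below those without. For 4 other genes a pair of probe sets set the TEN-160 arrays apart. The median signal ratio of the Oat probe sets, rc_AA893325_at over M93297cds_at, was 0.257 in EtOH-160, 0.223 in EtOH-220, 1.14 in TEN-160 and 0.26 in TEN-220. That of the Hpd probe sets rc_AA866302_at over AF082834_s_at was 0.0142 in EtOH-160, 0.0121 in EtOH-220, 0.00333 in TEN-160 and 0.0109 in TEN-220. The Haao ratio, D28339_s_at over D44494_at, was 0.261 in EtOH-160, 0.238 in EtOH-220, 0.384 in TEN-160 and 0.249 in TEN-220. The Hal ratio, AB002393_at over M58308_at, was 0.0347 in EtOH-160, 0.0445 in EtOH-220, 0.0734 in TEN-160 and 0.036 in TEN-220. In each of these 4 cases the TEN-160 arrays lay apart from all others. All these are unequal changes of probe sets of 1 gene. The BioDn ratio of the TEN-160 arrays also stood apart, and its part in them was not tested.

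**Figure D4:**
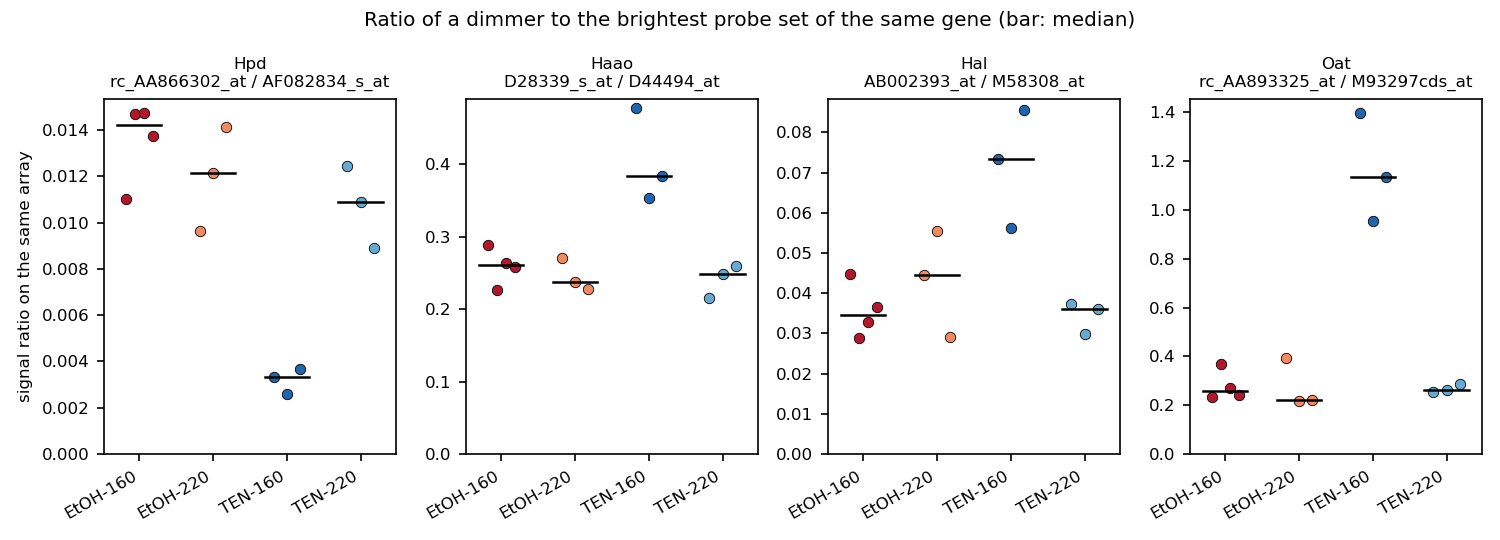
Within-array signal ratio, on linear axes that start at 0, of a dimmer over the brightest probe set of Hpd, Haao, Hal and Oat, for each array (points), with the group median (lines). For Oat the 3 TEN-160 arrays sit between 0.954 and 1.4, above all other arrays, and for Hpd (rc_AA866302_at) they sit between 0.0026 and 0.00367, below all others.

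Of 72 further enzymes of amino acid breakdown, 33 were on the array and 30 had a tested probe set. In EtOH-160 minus TEN-160, 14 of their 52 probe sets rose and 0 fell, where 11.9% of all tested probe sets were higher and 10.4% lower. These 14 belonged to 12 of the 30 genes, 9 genes rose by their brightest probe set, and the median change of that probe set was 0.27 where that of all tested probe sets was 0.02. Ivd, isovaleryl-CoA dehydrogenase of leucine breakdown, rose by 1.47 (SE 0.221, adjusted p = 0.000683), and the brightest of its 3 probe sets rose by 0.44 (adjusted p = 0.0344). Gls2, liver glutaminase, rose by 1.25 (SE 0.23, adjusted p = 0.00207). Glud1, glutamate dehydrogenase, rose by 0.80 (SE 0.147, adjusted p = 0.00207) on the brightest of its 3 probe sets. Its other probe sets changed by 0.38 (adjusted p = 0.0766) and -0.58 (0.311), neither called. Sardh, sarcosine dehydrogenase, rose by 1.94 (SE 0.445, adjusted p = 0.00798) on 1 of 3 probe sets, and the change of its brightest was 0.40 (adjusted p = 0.147).

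The calls of the other comparisons follow for the 52 probe sets of these 30 genes. In EtOH-160 minus TEN-220, 2 rose and 0 fell, where 1.33% of all tested probe sets were higher and 0.896% lower. In TEN-160 minus TEN-220, 2 rose and 3 fell, against 7.84% and 9.94% of all. The interaction was called positive for 3 and negative for 0, against 4.04% and 3.09% of all. In EtOH-160 minus EtOH-220 limma called 0, with 0.286% of all probe sets called. The median change of the brightest probe sets was 0.20 and 25 of 30 genes were positive. Over all tested probe sets the median was 0.00 and 50.8% were positive. An unadjusted p under 0.05 was reached by 10 of 52 probe sets, where 11.1% of all probe sets reached it. In EtOH-160 minus TEN-220, Got1, cytosolic aspartate aminotransferase, rose by 1.59 (adjusted p = 0.0199) and Acadsb, a branched-chain acyl-CoA dehydrogenase, by 1.02 (adjusted p = 0.0465). In TEN-160 minus TEN-220, Ivd fell by 1.18 (adjusted p = 0.00466) on a dimmer probe set, where the change of its brightest was -0.16 (adjusted p = 0.482). Glud1 fell by 0.52 (adjusted p = 0.0362) on its brightest probe set. Its other probe sets changed by 1.14 (adjusted p = 0.0731) and -0.25 (0.307), neither called. Cdo1, cysteine dioxygenase, rose by 0.89 (adjusted p = 0.012). The interaction was 1.74 for Ivd (adjusted p = 0.00819) on a dimmer probe set, 0.42 on its brightest (adjusted p = 0.215), and 1.30 for Gls2 (adjusted p = 0.033). In EtOH-220 minus TEN-220 limma called 0, with 0.0191% of all probe sets called. There 6 of 52 probe sets had an unadjusted p under 0.05, where 9.99% of all probe sets did. A positive change was seen for 15 of 30 genes, where 45.4% of all probe sets had one.

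**Figure D5:**
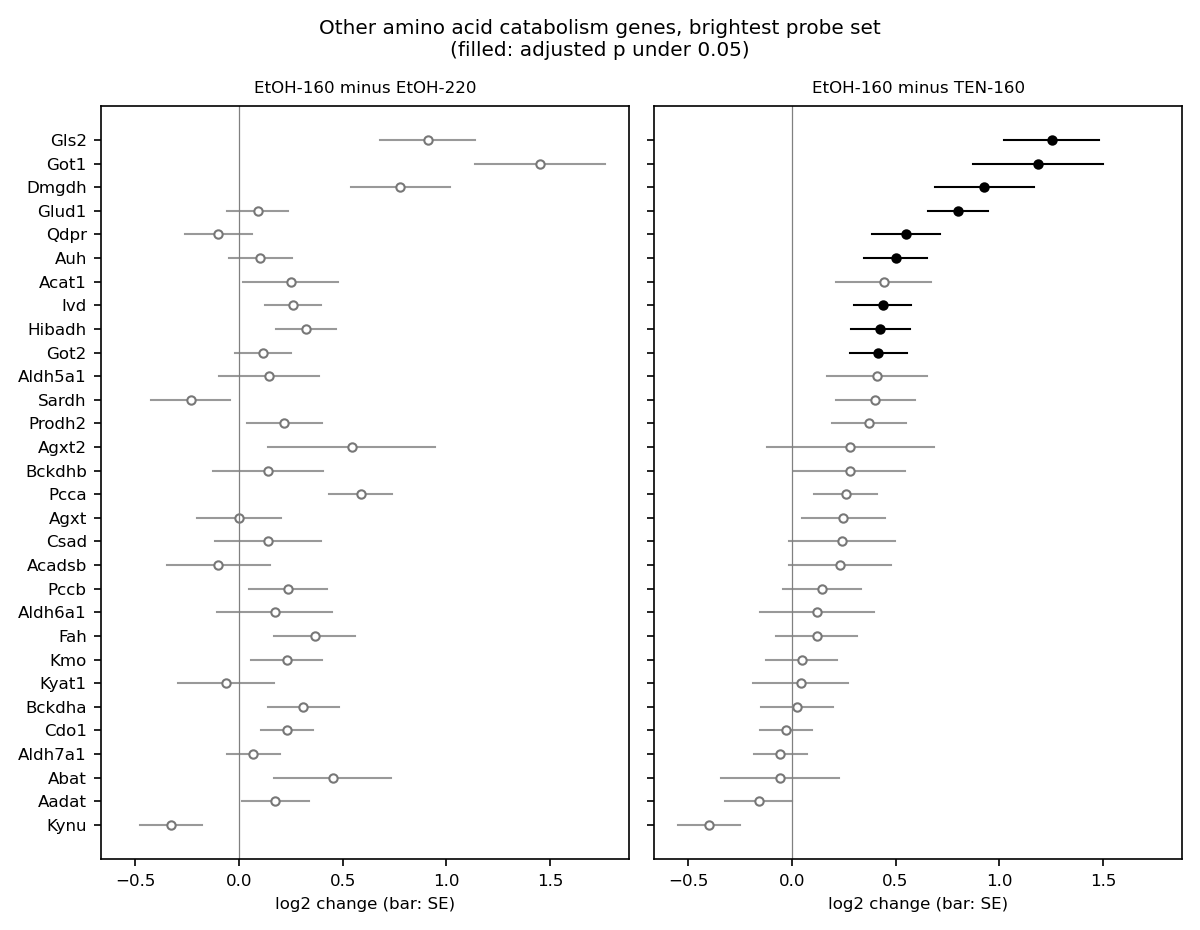
Log2 change of the brightest probe set of the 30 further enzymes of amino acid breakdown (points) with its standard error (bars) in EtOH-160 minus EtOH-220 and EtOH-160 minus TEN-160, with filled points for an adjusted p under 0.05. In EtOH-160 minus TEN-160, 25 of the 30 lie above 0 and 9 are filled, and in EtOH-160 minus EtOH-220 25 lie above 0 and none is filled. Over all tested probe sets 51% were above 0 in EtOH-160 minus TEN-160 and 50.8% in EtOH-160 minus EtOH-220.

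Markers of periportal hepatocytes, a list that holds Sds and Hal, had their highest sum in EtOH-160. The 10 measured of 11 summed to 47499 to 70929 in EtOH-160, against 39261 to 41567 in EtOH-220, 30239 to 34336 in TEN-160 and 27864 to 37314 in TEN-220. Without Sds and Hal the other 8 summed to 42741 to 60396 in EtOH-160, against 34568 to 35989 in EtOH-220, 26724 to 30140 in TEN-160 and 22299 to 32648 in TEN-220. EtOH-160 lay above all other arrays in both sums. Of the 10 genes, 7 had their highest group level in EtOH-160, Sds among them, and Hal, Cps1 and Cyp2f4 did not. Pck1 and Hsd17b13 lay close to the next group, at 2937.5 against 2805 in TEN-160 and 2033.4 against 1901.6 in EtOH-220. The share of all probe sets highest in EtOH-160 is not given here, so this count is a description only. Ass1, argininosuccinate synthase of the urea cycle, was the brightest of the 10 in EtOH-160. Its geometric means were 18052.0 in EtOH-160, 9749.1 in EtOH-220, 5287.9 in TEN-160 and 6823.2 in TEN-220. Pericentral markers, 8 of 11 measured, summed to 27979 to 38419 in EtOH-160, against 31272 to 37345 in EtOH-220, 22009 to 34008 in TEN-160 and 33981 to 39260 in TEN-220, with overlap between EtOH-160 and each other group.

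The genes whose profile over the 13 arrays was most like that of Sds J03863_at were found by the root mean square difference of mean-centred log2 signals. A profile with no change would differ by 2.47. The median over the tested probe sets that named 1 gene other than Sds was 2.50. The nearest genes were Nr1d1 at 1.05, Dbp at 1.47, Hsd17b2 at 1.58, Klf9 at 1.70, Asl at 1.73 and Nr1d2 at 1.79. Nr1d1, a nuclear receptor of the circadian clock, had geometric mean signals of 439.7 in EtOH-160, 26.0 in EtOH-220, 54.5 in TEN-160 and 21.0 in TEN-220. Asl, argininosuccinate lyase of the urea cycle, had 3114.6 in EtOH-160, 1251.7 in EtOH-220, 1192.0 in TEN-160 and 799.8 in TEN-220. Nr1d2 had 203.9 in EtOH-160, 29.0 in EtOH-220, 175.1 in TEN-160 and 22.9 in TEN-220, so that its TEN-160 level lay next to its EtOH-160 level. The Nr1d2 means in EtOH-220 and TEN-220 were under the background too.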

How the data were processed

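The deposited values were intensities on a linear scale, made by the authors with MAS5 per the submitters' processing notes, with no version stated there. Quantile normalization of the 8740 probe sets other than controls put the 13 arrays on 1 scale. Signals under the 10th percentile (9.338) were set to it, log2 was taken, and the 40% of probe sets with the lowest mean were left out, which left 5244. The 4 group means were fitted in limma 3.58.1 under R 4.3.3 with lmFit and a trended eBayes. Tests were two-sided and p-values were adjusted by Benjamini-Hochberg over all 5244 probe sets within a comparison. Gene names came from GEO's annotation of the array, which can be old: 7006 probe sets named 1 gene, 308 several and 1426 none. Each group's number of arrays limits the precision. The members, gene lists and tests were chosen with earlier results of these data known. Among the other enzymes of the pathway, the called genes with the smallest p are named, up to 4 in each direction. Marker lists for hepatocytes, their periportal and pericentral zones, macrophages, stellate, endothelial and bile duct cells, lymphocytes, erythroid cells, pancreas, kidney and fat were summed over the brightest probe set of each gene. Alternatives were trimmed-mean and median scaling, another floor, no filter, separate fits, a replicate block and leaving out arrays. Figures were drawn with matplotlib 3.10.9.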

Additional observations from a re-analysis of the deposited data

Results flagged for a closer look

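On 2 of the 17 member probe sets, 1 of the 4 EtOH-160 arrays lay far from the other 3 by Dixon's test at its 95% critical value. EtOH-160 replicate 1 had a signal of 738.8 for Sds J03863_at, with a gap to the nearest array of 0.85 of the group's log2 range, where the other 3 arrays had 4394.0 to 6023.0. EtOH-160 replicate 2 had 548.6 for Hal AB002393_g_at, with a gap of 0.856 of the range, where the other 3 had 982.1 to 1083.1. Chance flags about 1 group in 20 by this test, and groups of 3 arrays were not tested.

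The interaction of the limma fit, in which the ethanol difference is compared between the energy levels, was called for 5 of 16 tested member probe sets. Over all tested probe sets 7.13% were called. The interaction was 1.58 for Gpt (adjusted p = 0.0373), 0.82 for Hpd AF082834_s_at (0.0151), 2.76 for Hpd rc_AA866302_at (0.00206) and 0.85 for Haao D44494_at (0.0171). It was -2.13 for Oat rc_AA893325_at (0.00361). Other probe sets of these genes were not called: 0.85 for Hpd rc_AA866302_g_at (0.0586), 0.19 for Haao D28339_s_at (0.584) and -0.06 for Oat M93297cds_at (0.956). Without TEN-220 replicate 1 only 2 member calls were left. For each of the 5 the TEN-160 arrays lay wholly apart from the other arrays. The TEN-160 arrays also stood apart in the BioDn ratio, whose part was not tested.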

How the results depend on the processing

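Of 26 calls on member probe sets over the 6 comparisons, 14 kept their direction and their side of the threshold under each of the 18 to 20 alternatives run, 12 lost the call under at least 1, and 0 reversed. Of 70 values not called, 6 were called under at least 1. The 2 calls of EtOH-160 minus EtOH-220 became 1 under trimmed-mean scaling and 1 without the TEN-160 arrays, an alternative chosen after seeing the data, and 0 without the filter and 0 in a fit of the compared groups alone. Leaving out 1 array at a time gave 0 to 2 calls there, 8 to 12 in EtOH-160 minus TEN-160 (11 in the full fit), 0 to 0 in EtOH-220 minus TEN-220, 3 to 6 in TEN-160 minus TEN-220 (5), 2 to 3 in EtOH-160 minus TEN-220 (3) and 2 to 6 in the interaction (5). Over all probe sets the calls of EtOH-160 minus EtOH-220 numbered 15 and ranged from 4 to 52 without 1 array, were 0 of 8740 without the filter, 6 in a fit of the compared groups and 10 without the TEN-160 arrays. Those of EtOH-160 minus TEN-220 numbered 117, 60 without the filter and 38 to 150 without 1 array, those of TEN-160 minus TEN-220 numbered 932 and 542 to 1058 without 1 array, those of EtOH-220 minus TEN-220 numbered 1 and 0 to 13, and those of the interaction numbered 374 and 132 to 344. The cause of these changes was not tested, beyond the fewer samples or the larger number of probe sets in the refits.

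The replicate numbers were not taken to pair the arrays: over 18 pairs of same-numbered arrays of different groups, deviations from the group means correlated at -0.112 to 0.0853. With the replicate number as a block, member calls were 0 in EtOH-160 minus EtOH-220, 8 in EtOH-160 minus TEN-160, 0 in EtOH-220 minus TEN-220, 5 in TEN-160 minus TEN-220, 2 in EtOH-160 minus TEN-220 and 4 in the interaction. Over all probe sets the block gave 2 calls in EtOH-160 minus EtOH-220 and 58 in EtOH-160 minus TEN-220. Signals near the background limit what the arrays can show for Sds outside EtOH-160 and for Hpd rc_AA866302_at in TEN-160.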

Other observations

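The remaining marker lists gave these sums of normalized signal. Macrophage markers, 4 of 7 measured, summed to 3165 to 3739 in EtOH-160, 3119 to 4085 in EtOH-220, 3086 to 4848 in TEN-160 and 3406 to 3792 in TEN-220. Stellate cell and fibroblast markers, 5 of 6 measured, summed to 1055 to 1860 in EtOH-160, 1180 to 1516 in EtOH-220, 1620 to 3881 in TEN-160 and 1564 to 1705 in TEN-220. Endothelial markers, 3 of 6, summed to 268 to 448 in EtOH-160, 360 to 459 in EtOH-220, 333 to 603 in TEN-160 and 229 to 252 in TEN-220, where TEN-220 lay below all other arrays. Lymphocyte markers, 5 of 7, lay between 451 and 677 on all arrays, and Cd3d was below background on all of them. Pancreas markers, 6 of 6, summed to 2439 to 6431 in EtOH-160, 1331 to 3423 in EtOH-220, 3446 to 10321 in TEN-160 and 2120 to 6388 in TEN-220, with Cpa1 alone at 291 to 8558. Kidney markers, 5 of 5, lay between 287 and 486, and Slc12a1 and Kap were under the floor on every array. Adipocyte markers, 3 of 4, lay between 927 and 2635, and Fabp4 stood at or under the floor on every array. The part of these markers in the results was not tested.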
